A study of Saccharomyces cerevisiae with 8 samples.

Results

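The genes described here are the GATA factors of nitrogen catabolite repression in budding yeast, their inhibitor Ure2, and enzymes and a transporter for the use of allantoin and urea. They were chosen by name, as the S. cerevisiae probe sets that the platform gene table assigns to 10 listed genes: GLN3, GAT1, DAL80, GZF3, URE2, DAL1, DAL2, DAL3, DUR1,2 and DUR3. Of the 10, 9 had a named probe set, 1 each, among 5498 for S. cerevisiae. DUR1,2, which encodes urea amidolyase, was not analysed here. All 9 passed the filter on dim signals, as did 5437 of the 5498 probe sets.

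The arrays compare a strain with the CDC34tm allele of the ubiquitin-conjugating enzyme gene CDC34 (RRC85, MATα, CDC34tm(NatR)) and an isogenic wild type (WT; DBY2059, MATα, leu2-3, 112). Each group is 1 strain with 4 separate cultures and 1 array per culture. Both grew at 30 °C in synthetic medium with 2% dextrose, 25.2 mg/L leucine and 0.25% glutamine, without ammonium sulfate, for 3 to 4 doublings after inoculation from stationary phase. Per the labels, the construction brought further variables: the nourseothricin resistance marker, damage to part of the 3' region of PST1, and the leu2 allele, which is given for WT in the design text but for every sample in the source names. An effect of the CDC34tm allele and effects of those differences cannot be told apart.

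As background, yeast uses good nitrogen sources such as glutamine before poor ones such as allantoin and urea, and keeps the genes for the poor ones low meanwhile. Gln3 and Gat1 activate those genes by binding GATA sequences in their promoters, and Dal80 and Gzf3, which bind the same sequences, repress them. Ure2 holds Gln3 in the cytoplasm when nitrogen is good. Allantoin is taken up by Dal4, opened by the allantoinase Dal1 to allantoate, and cut by the allantoicase Dal2 and the ureidoglycolate lyase Dal3 to glyoxylate and urea, which urea amidolyase breaks down.

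Per array, the S. cerevisiae probe sets had a median signal of 1162 to 1244. Background, taken as the 95th percentile of the S. pombe probe sets that the array also carries, lay between 12.3 and 14.6. The 4 alpha-specific mating genes examined read 5566 to 13540 and the 6 a-specific genes 32.3 to 302.0, so that the genes of the labelled mating type were bright and those of the other were dim in both strains. WT replicates 1 and 4 stood apart from WT replicates 2 and 3. The 8 heat shock genes examined were HSP30, HSP42, HSP82, HSP78, BTN2, SIS1, HSP104 and SSA4. Among them SSA4 did not separate WT replicates 2 and 3 (378 and 468) from CDC34tm (445 to 566). The median signal of the 8 genes was 6345 on WT replicate 1 and 7136 on WT replicate 4. It was 896 on WT replicate 2, 798 on WT replicate 3, and between 374 and 408 across CDC34tm. The main results below are therefore also given without either pair of WT arrays where that changes a call or, for the 9 measured genes, a direction, and the part of the heat shock difference in these results was not tested.

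In CDC34tm, GLN3, DAL80 and DAL3 rose, DAL2 fell, and the other 5 measured genes were not called. The test was limma on log2(signal + 16), CDC34tm minus WT, with p-values adjusted by Benjamini-Hochberg across the 5437 tested probe sets (threshold 0.05), and fold changes are on that scale, which understates those of dim genes. The count of 4 called among 9 stands beside 38.6% of all tested probe sets (18.9% higher and 19.7% lower), so the share of these genes that was called lay near the background. Centring each array on its median made 59.1% of all calls higher in place of 49.0%, with 3 rises and 1 fall among these genes. The counts were 2 higher and 1 lower without WT replicates 1 and 4, and 4 higher and 2 lower without WT replicates 2 and 3, beside 38.8% and 48.0% of tested probe sets called. Their log2 fold changes ran from -0.47 to 0.61 with a median of 0.11, against a median of 0.00 over all tested probe sets. DAL80 and DAL3 read higher on every CDC34tm array than on any WT array, and DAL2 and URE2 lower. Of all tested probe sets, 39.5% were likewise without overlap (19.1% higher and 20.5% lower).

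**Figure D1:**
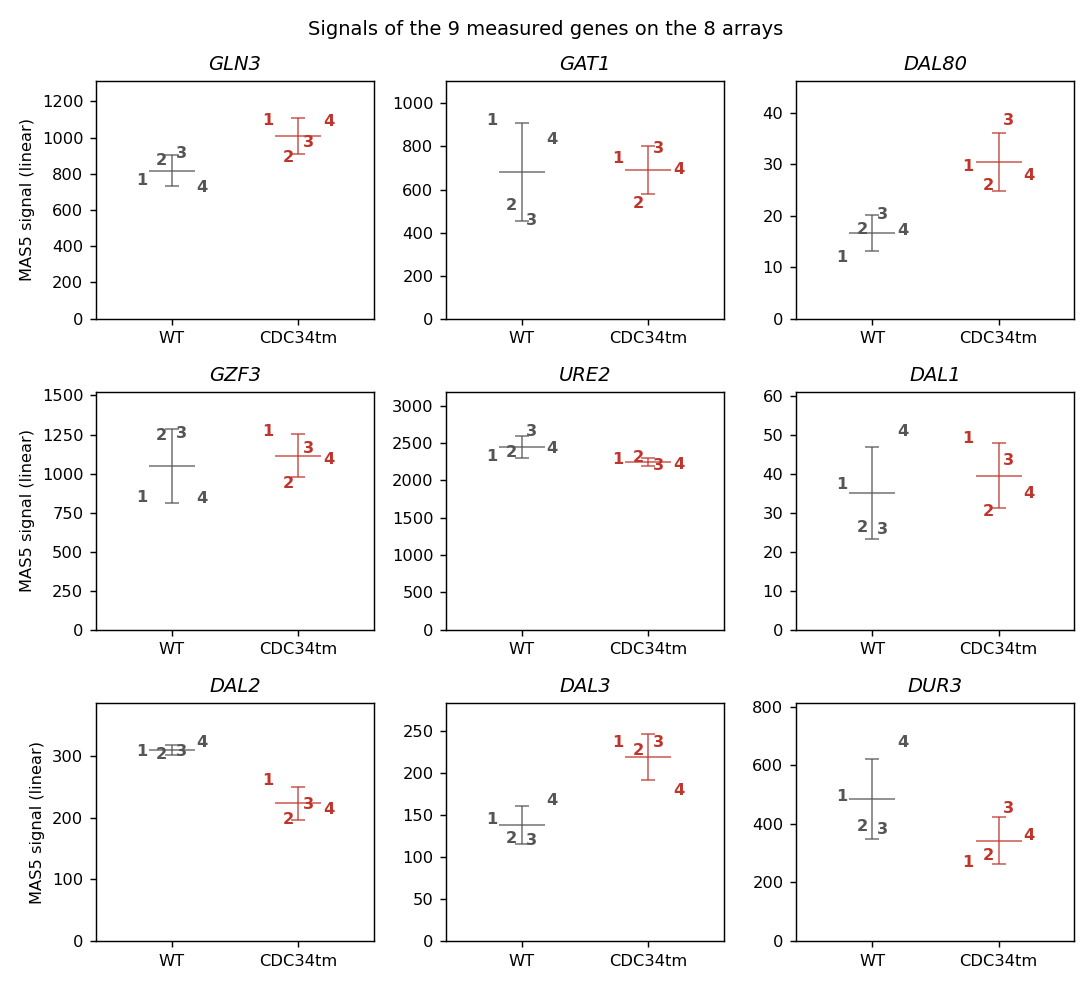
MAS5 signal (linear scale, each panel from 0) of the 9 measured genes in WT (grey) and CDC34tm (red). Each digit is the replicate number of 1 array, and the line and bars are the mean and SD over 4 arrays. DAL80 and DAL3 lie higher and DAL2 lower on every CDC34tm array. The WT arrays 1 and 4 lie apart from 2 and 3 for GAT1, GZF3 and DAL1, and also for GLN3, DAL3 and DUR3.

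Among the activators, GLN3 rose and GAT1 was not called. GLN3 read 1093, 888, 971 and 1090.3 on CDC34tm replicates 1 to 4, and 764, 870.3, 909.5 and 724 on WT replicates 1 to 4. The ranges overlapped: CDC34tm replicate 2 lay between WT replicates 2 and 3, and the other CDC34tm arrays lay above every WT array. Its mean rose from 817 ± 87.2 to 1011 ± 99.7 (SD, n = 4 each), a log2 fold change of 0.30 (SE 0.099, 95% interval 0.08 to 0.52, limma adjusted p = 0.0354).

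The call of GLN3 was close to the threshold. It was lost without CDC34tm replicate 1 (adjusted p = 0.100), 3 (0.0581) or 4 (0.102) and without WT replicate 1 (0.0788) or 4 (0.0877). Without WT replicates 1 and 4 together the log2 fold change was 0.18 (adjusted p = 0.181), while leaving out WT replicates 2 and 3 gave 0.43 (adjusted p = 0.00477).

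GAT1, whose product is the other activator, depended on which WT cultures it was set against. It read 920.0, 524, 454 and 831 on WT replicates 1 to 4 and 742, 536, 790.3 and 692 on CDC34tm replicates 1 to 4. The CDC34tm arrays all lay between the WT pair of 1 and 4 and the pair of 2 and 3. CDC34tm averaged 690.3 ± 110.2 and WT 682 ± 228 (SD, n = 4 each), a log2 fold change of 0.06 (95% interval -0.43 to 0.55, limma adjusted p = 0.847). Without WT replicates 1 and 4 it was 0.47 and called (adjusted p = 0.0274), while leaving out WT replicates 2 and 3 gave -0.35, not called (adjusted p = 0.0589). The SD of its log2 signals among WT cultures, 0.485, exceeded that of 96.8% of tested probe sets.

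Of the repressors, DAL80 rose from close to background and GZF3 was not called. DAL80 read 29.5, 26.0, 38.5 and 27.7 on CDC34tm replicates 1 to 4, all above the background of their arrays. It read 11.9, 17.4, 20.2 and 17.1 on WT replicates 1 to 4, of which replicate 1 lay below background and the other 3 just above it. Every CDC34tm array lay above every WT array, at signals far under the array median in both strains. The means were 30.4 ± 5.55 and 16.6 ± 3.45 (SD, n = 4 each), a log2 fold change of 0.51 (SE 0.136, 95% interval 0.20 to 0.81, limma adjusted p = 0.0159). At this signal the size depends on the pseudocount: it was 0.84 with a pseudocount of 1 and 0.23 with 64, called in both. The call was lost without WT replicates 1 and 4 together (0.41, adjusted p = 0.0846).

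GZF3, which encodes the other GATA repressor, read 1268, 938, 1163 and 1091 on CDC34tm replicates 1 to 4 and 847, 1244, 1258 and 838 on WT replicates 1 to 4. The WT arrays formed the same pairs as for GAT1 in the opposite order, with replicates 1 and 4 low. The log2 fold change was 0.11 (95% interval -0.24 to 0.45, limma adjusted p = 0.610). It was 0.39 and called without WT replicates 2 and 3 (adjusted p = 0.0138), and -0.17 and not called without WT replicates 1 and 4 (adjusted p = 0.242).

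URE2 had the narrowest spread of the 9 genes in CDC34tm and was not called. It read 2278, 2305, 2195 and 2212 on CDC34tm replicates 1 to 4 and 2327, 2377, 2652 and 2430.1 on WT replicates 1 to 4. All CDC34tm arrays lay below all WT arrays, by a small margin. The log2 fold change was -0.12 (95% interval -0.25 to 0.01, limma adjusted p = 0.131), so a fall of more than 0.25 on the log2 scale lies outside the interval. It was not called under any of the 18 alternatives run.

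**Figure D2:**
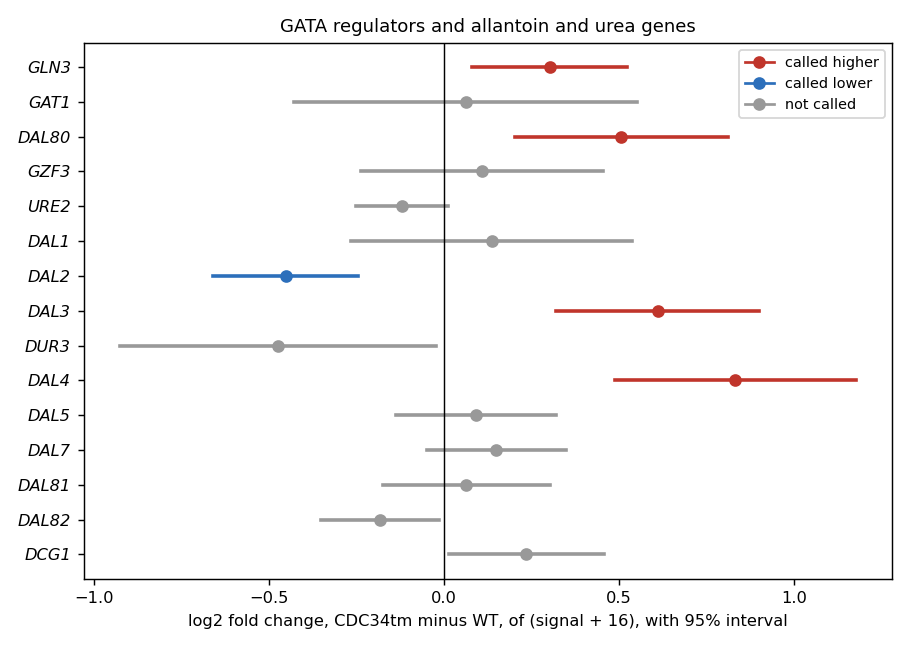
Log2 fold change of (signal + 16), CDC34tm minus WT, with its 95% interval from the limma fit, for the 9 measured genes and 6 further allantoin and urea genes. Red marks genes called higher (GLN3, DAL80, DAL3 and DAL4), blue the gene called lower (DAL2) and grey those not called.

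The genes for breaking down allantoin did not move one way: DAL3 rose, DAL2 fell and DAL1 was not called. DAL1, for the allantoinase of the opening step, was dim in both strains. It read 48.9, 30.4, 43.5 and 35.0 on CDC34tm replicates 1 to 4 and 37.3, 26.2, 25.6 and 50.8 on WT replicates 1 to 4. The CDC34tm arrays lay within the range of the WT arrays. The log2 fold change was 0.14 (95% interval -0.26 to 0.54, limma adjusted p = 0.578). Leaving out WT replicates 1 and 4 gave 0.39 (adjusted p = 0.108) and leaving out the other WT pair gave -0.12 (adjusted p = 0.628).

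DAL2, for the allantoicase, read 260.0, 198, 222 and 214 on CDC34tm replicates 1 to 4 and 308, 303, 308 and 322 on WT replicates 1 to 4. The WT arrays lay close together, including the replicates that split for other genes, and every CDC34tm array lay below them. The mean fell from 310.2 ± 8.13 to 224 ± 26.3 (SD, n = 4 each), a log2 fold change of -0.45 (SE 0.0925, 95% interval -0.66 to -0.24, limma adjusted p = 0.00446). The SD of its log2 signals in WT, 0.0356, was smaller than that of most tested probe sets, with 3.70% below it. It was called lower under all 18 alternatives run, with log2 fold changes from -0.52 to -0.33.

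DAL3, for the ureidoglycolate lyase, read 236, 226, 236 and 178 on CDC34tm replicates 1 to 4 and 145, 122, 119 and 168 on WT replicates 1 to 4. CDC34tm replicate 4 was the lowest of its strain and lay just above WT replicate 4, the highest of WT. The mean rose from 138 ± 22.6 to 219 ± 27.4 (SD, n = 4 each), a log2 fold change of 0.61 (SE 0.130, 95% interval 0.32 to 0.90, limma adjusted p = 0.00537). This was larger in size than the fold change of 90.3% of tested probe sets. DAL3 was called higher under all 18 alternatives run. Since WT replicates 1 and 4 read above 2 and 3, the log2 fold changes ran from 0.44 without WT replicates 2 and 3 to 0.78 without WT replicates 1 and 4.

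DUR3, for the urea permease, had a lower mean in CDC34tm without passing the test. It read 269, 293, 452 and 359 on CDC34tm replicates 1 to 4 and 495, 392, 381 and 677 on WT replicates 1 to 4. CDC34tm replicate 3 lay among the WT arrays, and the other 3 lay below all of them. The log2 fold change was -0.47 (95% interval -0.92 to -0.02, limma adjusted p = 0.0886). It was called without CDC34tm replicate 3 (-0.61, adjusted p = 0.0430) and without WT replicates 2 and 3 (-0.75, adjusted p = 0.00898), and was -0.19 without WT replicates 1 and 4 (adjusted p = 0.421).

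**Figure D3:**
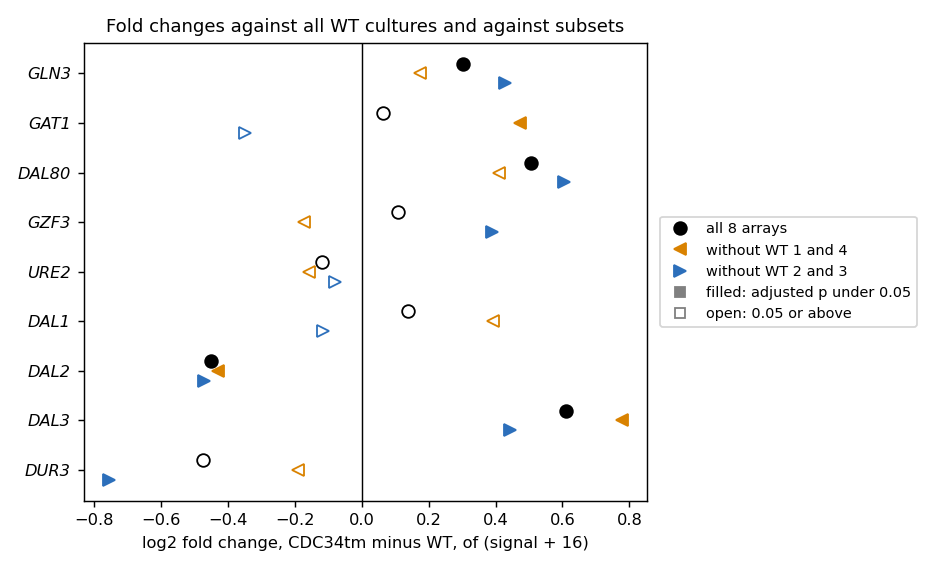
Log2 fold change of (signal + 16), CDC34tm minus WT, of the 9 measured genes with all 8 arrays (black circles), without WT replicates 1 and 4 (orange) and without WT replicates 2 and 3 (blue). Filled symbols have a limma adjusted p under 0.05. DAL2 and DAL3 are filled in all 3 fits, whereas GAT1, GZF3 and DAL1 change sign between the subsets.

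Several of these genes varied together among cultures of a strain, and others in opposite directions. Over deviations from the strain means on the 8 arrays, DAL1 followed GAT1 (Pearson r = 0.838) and DAL3 followed DAL1 (r = 0.796), and GLN3 followed GZF3 (r = 0.871). Negative correlations included GLN3 with DAL3 (r = -0.728) and GAT1 with URE2 (r = -0.705). These arrays share the split among WT cultures, so the correlations are descriptions.

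Of 6 further genes of the pathway, DAL4 rose and the other 5 were not called, with a median log2 fold change of 0.12. The share called was 16.7%, beside 38.6% of all tested probe sets. Quantile normalization added DCG1 (0.34, adjusted p = 0.0326), and the median was 0.21 without WT replicates 2 and 3. DAL4, for the allantoin permease, read 70.2, 74.7, 73.0 and 73.8 on CDC34tm replicates 1 to 4 and 38.3, 21.2, 33.5 and 46.1 on WT replicates 1 to 4. The CDC34tm arrays were close together and all above the WT arrays, which spread more widely. The mean rose from 34.8 ± 10.5 to 72.9 ± 1.97 (SD, n = 4 each), a log2 fold change of 0.83 (SE 0.154, 95% interval 0.49 to 1.18, limma adjusted p = 0.00266). It was called under all 18 alternatives, and with a pseudocount of 64 the value was 0.48. DAL5, the allantoate permease gene, had 0.09 (adjusted p = 0.507) and DAL7, a malate synthase gene, 0.15 (adjusted p = 0.209). DCG1, a gene of unknown function, had 0.24 (adjusted p = 0.0861) and signals that did not overlap. The genes of the pathway's own activators had 0.06 for DAL81 (adjusted p = 0.663) and -0.18 for DAL82 (adjusted p = 0.0803), and the signals of DAL82 did not overlap. DAL81 changed sign with the WT arrays used, from -0.10 without WT replicates 1 and 4 to 0.23 without WT replicates 2 and 3 (adjusted p = 0.0589), and was called in neither fit.

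Of the genes above, 6 are neighbours. By the gene order of RefSeq's R64 assembly, DAL1, DAL4, DAL2, DCG1, DAL7 and DAL3 follow each other on chromosome IX, with YVH1 before them and MGA2 after them. Along this row the log2 fold changes were 0.14, 0.83, -0.45, 0.24, 0.15 and 0.61, so that DAL2, called lower, lay directly beside DAL4, called higher. The 95% intervals of DAL2 (-0.66 to -0.24) and of DAL4 (0.49 to 1.18) did not meet. The flanking genes were not called: YVH1, a phosphatase gene, had 0.09 (adjusted p = 0.552) and MGA2, a regulator of fatty acid desaturation, 0.17 (adjusted p = 0.446).

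**Figure D4:**
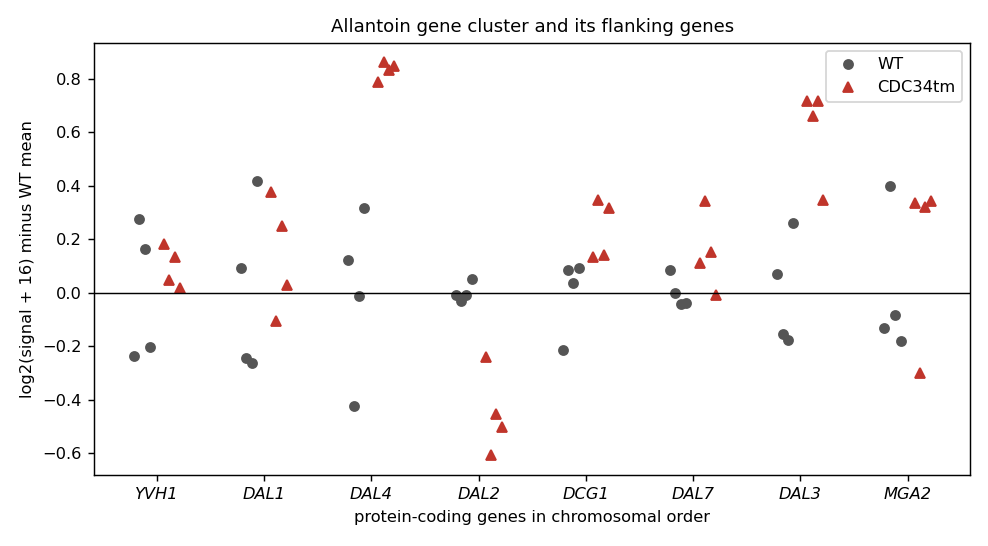
Log2(signal + 16) minus the WT mean of each gene, for the allantoin genes and their flanking genes in chromosomal order (not to scale), with WT arrays as grey circles and CDC34tm arrays as red triangles. All CDC34tm arrays lie above all WT arrays for DAL4, DCG1 and DAL3 and below them for DAL2.

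Other targets of nitrogen catabolite repression were also mixed. Of 18 listed, 2 rose and 6 fell, with a median log2 fold change of -0.17, and the share called was 44.4% against 38.6% of all tested probe sets. The counts were 4 higher and 5 lower without WT replicates 1 and 4, and 2 higher and 10 lower without WT replicates 2 and 3, beside 38.8% and 48.0% of all tested probe sets called in those fits. GLN1, which encodes glutamine synthetase, had the largest change of the list with all arrays. It read 3553, 3369, 4066 and 3489.7 on CDC34tm replicates 1 to 4 and 9809, 8959.7, 7562 and 9069 on WT replicates 1 to 4. Every CDC34tm array read less than any WT array by a wide margin, and the log2 fold change was -1.28 (95% interval -1.47 to -1.09, limma adjusted p = 1.01e-05). The arginase gene CAR1 (-0.60), the amino acid permease gene AGP1 (-0.60), the ammonium permease gene MEP3 (-0.46) and the arginine permease gene CAN1 (-0.19) fell and were called under all 18 alternatives.

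In the pathway for γ-aminobutyrate (GABA), the neighbouring steps went in opposite directions. UGA4, for the GABA permease, rose by 0.47 on the log2 scale (adjusted p = 0.0065), from 191 ± 21.4 to 269 ± 24.5, and was called under all 18 alternatives. UGA1, for GABA transaminase, fell by 0.38 (adjusted p = 0.0226), from 1653 ± 261 to 1258 ± 85.8 (SD, n = 4 each). The call of UGA1 was lost without CDC34tm replicate 2 or 4, without WT replicate 1 or 4, and without both of these WT arrays (-0.19, adjusted p = 0.107). ASP3-1, an asparaginase gene with near-identical copies that its probe set may also read, rose by 0.13 (adjusted p = 0.0236). Its call was lost without CDC34tm replicate 3 or WT replicate 2 or 4, without either pair of WT arrays and with eBayes without the trend (adjusted p from 0.0505 to 0.0753).

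**Figure D5:**
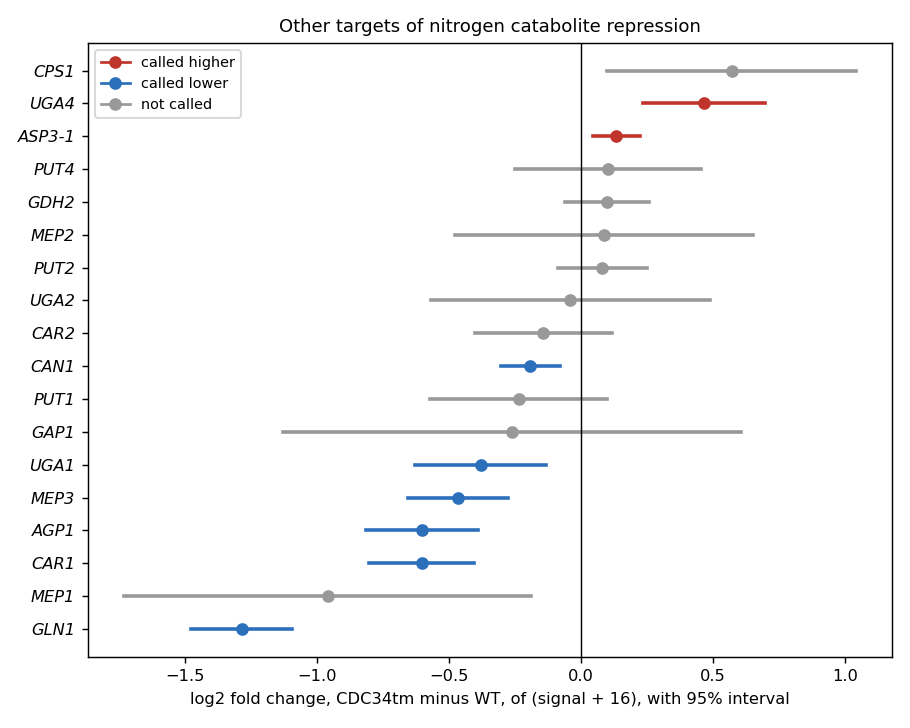
Log2 fold change of (signal + 16), CDC34tm minus WT, with its 95% interval from the limma fit, for 18 other genes under nitrogen catabolite repression. GLN1, CAR1, AGP1, MEP3, UGA1 and CAN1 were called lower (blue), UGA4 and ASP3-1 higher (red), and the intervals of GAP1, MEP1, MEP2 and UGA2 are wide.

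The transporter genes GAP1, MEP1 and MEP2, for general amino acid and ammonium uptake, and UGA2, for succinate semialdehyde dehydrogenase, split the WT arrays as GAT1 did and were not called. GAP1 read 1402, 464, 497 and 1589.5 on WT replicates 1 to 4 and 561 to 966 on the CDC34tm arrays. Its log2 fold change was -0.26 with all arrays (adjusted p = 0.627), 0.54 without WT replicates 1 and 4 (adjusted p = 0.0347) and -1.06 without WT replicates 2 and 3 (adjusted p = 7.36e-04). MEP2 likewise gave 0.62 and -0.44, and UGA2 0.45 and -0.53, each past the threshold in both subsets. MEP1 had -0.96 with all arrays (adjusted p = 0.0509), -0.23 without WT replicates 1 and 4, -1.68 when WT replicates 2 and 3 were left out, and was called without WT replicate 2 or 3. The proline genes PUT1, PUT2 and PUT4, the glutamate dehydrogenase gene GDH2 and the ornithine aminotransferase gene CAR2 had values from -0.24 to 0.10, and the carboxypeptidase gene CPS1 had 0.57 (adjusted p = 0.0560). Of these, CPS1 was 0.30 without WT replicates 1 and 4 and was called without CDC34tm replicate 3, without WT replicate 2, without WT replicates 2 and 3 and under both other normalizations.

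A further list held 19 genes for the TORC1 kinase, phosphatases and other proteins placed upstream of Gln3 and Gat1. Among them 5 fell and 0 rose, with a median log2 fold change of -0.11. The share called was 26.3%, below the 38.6% of all tested probe sets. LST8, a subunit shared by the TOR complexes, fell by 0.61 (adjusted p = 0.0154). TIP41, which binds the phosphatase regulator Tap42, fell by 0.50 (adjusted p = 0.00196), CDC55, a regulatory subunit of protein phosphatase 2A, by 0.37 (adjusted p = 0.00139) and SIT4, a phosphatase for which Gln3 is a known target, by 0.24 (adjusted p = 0.0137). These 4 were called under all 18 alternatives, although LST8 was -0.29 without WT replicates 1 and 4, against -0.92 when WT replicates 2 and 3 were left out. TOR2, a TOR kinase gene, fell by 0.26 (adjusted p = 0.0173), a call that was lost without CDC34tm replicate 4 (0.0596) and without WT replicates 2 and 3 (0.0541). TOR1, KOG1, TAP42, NPR1 and the other members were not called, with log2 fold changes from -0.17 to 0.20. Of these, GTR1, for a GTPase upstream of TORC1, was called higher without WT replicate 3 (0.28, adjusted p = 0.0276) and without WT replicates 2 and 3 (0.23, adjusted p = 0.0423). PPH21, for a catalytic subunit of protein phosphatase 2A, was called lower in the same fits (-0.18 and -0.19, adjusted p = 0.0424 and 0.0313). The counts were then 6 lower and 1 higher without WT replicate 3, and 5 lower and 1 higher without WT replicates 2 and 3, where TOR2 lost its call. Of all tested probe sets, 38.5% and 48.0% were called in those fits.

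The genes most like DAL2, DAL3 and DAL80 over the 8 arrays were sought by Pearson correlation among 5391 others, as a description that the strain difference enters. For DAL2 they were TYE7 (r = 0.983), an activator of glycolytic genes, STP2 (r = 0.981), a transcription factor of amino acid sensing, and GIS1 (r = 0.981). For DAL3 they were JLP1 (r = 0.972), a sulfonate dioxygenase gene, DPB3 (r = 0.958) and ERP4 (r = 0.958). For DAL80 they were GLO4 (r = 0.985), a mitochondrial glyoxalase gene, YNL208W (r = 0.971) and BCH2 (r = 0.970). Over deviations from the strain means JLP1 was again among the 3 most like DAL3 (r = 0.944), behind ALT2 (r = 0.977), whereas the lists for DAL2 and DAL80 held none of the same genes.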

How the data were processed

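Total RNA from 8 cultures, 4 per strain, was hybridised to Affymetrix Yeast 2.0 arrays. The authors deposited linear array intensities, which the submitters' processing notes name as MAS5 (version and scaling target not given in the sources used here). Leaving out the highest and lowest 2% of probe sets, the mean signal was 1000 on each array. Since the deposited values share this mean, they cannot show a change in total mRNA. No further rescaling was applied. Probe sets were named through the platform gene table, with symbols updated through the RefSeq table, and the brightest per gene was used (each named gene of the lists had 1). Probe sets above background on at least 4 of 8 arrays were tested with limma 3.58.1 in R 4.3.3 (eBayes with trend, two-sided). The fit was also run on simulated data with independent noise and no split among WT cultures. That run therefore cannot show how the split affects the calls. The labels give separate cultures, and 4 arrays per strain limit the precision.

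The genes, the 3 pathway lists, the marker lists and the alternatives were chosen with earlier results of these data known, and the text names all their members or gives their range. The 3 genes most like a member were sought for the 3 members with the smallest adjusted p. Alternatives were pseudocounts of 1 and 64, quantile normalization, centring, no filter, a filter requiring all 8 arrays, no eBayes trend, a block on the replicate number, each array left out, and either pair of WT arrays left out. Promoter and protein sequences were not used here.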

Additional observations from a re-analysis of the deposited data

Results flagged for a closer look

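Among the genes of the 3 lists and the 9 measured genes, 104 groups of 4 arrays were examined for an array far from the other 3 by Dixon's test at the 95% level, which chance exceeds in about 1 of 20 groups. This marked 4 values. DAL3 read 178 on CDC34tm replicate 4, low against 226 to 236 on the other CDC34tm arrays. MEP2 read 759 on CDC34tm replicate 3, high against 625 to 640.3, and MEP3 read 2056 on the same array, high against 1656 to 1718. TOR2 read 1313 on WT replicate 1, low against 1498 to 1535. Without the array named, DAL3 (0.70), MEP3 (-0.54) and TOR2 (-0.31) kept their calls.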

How the results depend on the processing

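Of the 9 measured genes, DAL2 and DAL3 kept their calls and directions under all 18 alternatives, as did DAL4. DAL80 could not be fitted with the filter requiring all 8 arrays, since WT replicate 1 lay below background, and kept its call under 16 of the other 17. GLN3 kept its call under 11 of 18. With either pair of WT arrays left out, GAT1, GZF3 and DAL1 had opposite signs, and the cause was not tested. Leaving out WT replicates 1 and 4 turned GAP1 (0.54) and UGA2 (0.45) and gave 4 other targets of nitrogen catabolite repression called higher. Leaving out WT replicates 2 and 3 turned MEP2 (-0.44) and gave 2 of the 9 genes called lower, 10 other targets called lower, 1 TORC1 branch gene called higher and a median of 0.21 for the other allantoin genes. Without those WT pairs, 38.8% and 48.0% of all tested probe sets were called, in that order. Quantile normalization gave 2 of the other allantoin genes called higher, and eBayes without the trend 1 other target called higher. Those fits called 39.7% and 38.3% of all tested probe sets. With single arrays left out, the counts ranged from 2 to 3 higher and 1 to 2 lower among the 9 genes, from 1 to 2 other targets higher, and from 0 to 1 TORC1 branch genes higher. Those fits called between 29.2% and 38.9% of all tested probe sets, and the counts did not follow that share in every fit. Without CDC34tm replicate 3, 33.2% of tested probe sets were called in place of 38.6%, while 2 of the 9 genes were called lower in place of 1. Using the mean of several probe sets changed nothing to be given, since each gene had 1.

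With the replicate block, 975 probe sets were called higher and 1018 lower in place of 1028 and 1072, and 2 and 1 of the 9 genes, GLN3 losing its call (adjusted p = 0.0784). The numbers are not shown to pair the cultures: deviations of same-numbered arrays correlated at 0.04, 0.23, -0.08 and 0.06, and 2 of 4 CDC34tm and 1 of 4 WT arrays correlated best with their own number. DAL80, DAL1 and DAL4, within a few times background, are the genes whose size the signal limits most. The signals of DAL3, and of DAL2 in CDC34tm, also lay within the range of the a-specific genes (32.3 to 302.0). In WT, DAL2 read 303 to 322, just above it. Whether this limits the sizes of DAL2 and DAL3 was not tested.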
